A study of Mus musculus with 5 samples.

Results

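The early B cell factor genes Ebf1, Ebf2, Ebf3 and Ebf4 and the zinc finger genes Zfp423 and Zfp521 were examined in marrow stromal cells of 2 fetal origins. The 6 genes were taken by symbol from the 30046 features of the deposited gene counts, in which each has 1 row. The libraries were prepared from Cxcl12-GFP high, tdTomato+ cells sorted from the femurs of mice at postnatal day 21, whose dams had received tamoxifen once, at E12.5. In 3 libraries, termed Dlx5 here, the mice were Cxcl12(GFP/+); Dlx5(CreER/+); R26R(tdTomato/+), so that cells descending from Dlx5-expressing cells of the early perichondrium carried tdTomato. In 2 libraries, termed Fgfr3 here, the mice were Cxcl12(GFP/+); Fgfr3-iCreER; R26R(tdTomato/+), in which fetal chondrocytes and their descendants were marked. All mice therefore had GFP in 1 Cxcl12 allele, and littermates of a genotype were pooled before sorting, so that a library is a pool and not a single animal. The labels number the Fgfr3 libraries 2 and 3. The comparison asks how perichondrium-derived and cartilage-derived CXCL12-abundant reticular (CAR) cells differ in these factors at the same age.

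Ebf proteins bind DNA as dimers and share a DNA-binding domain, an IPT domain and a helix-loop-helix dimerization domain. EBF1 is best known as a determinant of the B lymphocyte lineage, EBF2 as a regulator of brown fat identity, and EBF1 and EBF3 as factors of CAR cells that keep the marrow open for haematopoiesis. ZFP423 and ZFP521 are large related proteins with many zinc fingers that bind EBF proteins, and ZFP423 also works with BMP-activated Smads and in the commitment of preadipocytes.

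RefSeq promoter windows on GRCm38.p6 were held for 4 of the 6 members, in 6 windows, and the sequence before a start is given for Ebf1 and Ebf3, the members that passed the test below, and for Zfp423, the partner whose difference had the other sign. Each line is the 250 bases before an annotated RefSeq start, 5′ to 3′ on the strand of the gene, with CpG dinucleotides in capitals. The Ebf1 window is chr11:44619978-44620227 on the plus strand, before a start 2911 bases inside the GENCODE gene. The Ebf3 window is chr7:137314446-137314695 on the minus strand, and the Zfp423 window is chr8:87959596-87959845 on the minus strand. No annotated exon overlaps any of them.
Ebf1: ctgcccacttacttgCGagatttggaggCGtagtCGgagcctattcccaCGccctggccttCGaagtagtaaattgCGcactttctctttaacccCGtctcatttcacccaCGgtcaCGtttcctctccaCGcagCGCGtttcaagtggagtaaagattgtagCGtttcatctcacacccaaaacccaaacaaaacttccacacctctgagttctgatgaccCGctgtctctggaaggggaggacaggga
Ebf3: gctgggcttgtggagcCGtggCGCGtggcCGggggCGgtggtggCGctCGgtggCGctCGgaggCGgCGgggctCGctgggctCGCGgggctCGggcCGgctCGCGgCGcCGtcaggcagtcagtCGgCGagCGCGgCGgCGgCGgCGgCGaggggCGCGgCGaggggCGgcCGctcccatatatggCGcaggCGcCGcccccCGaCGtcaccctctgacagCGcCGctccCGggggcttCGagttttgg
Zfp423: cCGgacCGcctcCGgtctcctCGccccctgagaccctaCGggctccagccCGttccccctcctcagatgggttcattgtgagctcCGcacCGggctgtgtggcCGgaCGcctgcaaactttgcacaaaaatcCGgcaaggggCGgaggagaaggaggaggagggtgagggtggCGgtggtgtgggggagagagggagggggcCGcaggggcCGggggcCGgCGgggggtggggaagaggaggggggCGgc
The Ebf1 window held 14 CpG, the Ebf3 window 43 and the Zfp423 window 18, against a median of 6 over 32851 windows of this length. GC content was 52.0% for Ebf1, 80% for Ebf3 and 71.6% for Zfp423, against a median of 52.4%. RefSeq gives Ebf1 and Zfp423 another start each: the window before that of Ebf1 held 9 CpG and lies inside an annotated exon, so it is not printed, and that of Zfp423, 155156 bases inside the gene, held 6 CpG at a GC content of 64.8%. The Zfp423 window at the outer start of the gene is the one shown. The palindrome TCCCNNGGGA, in which N is any base and which reads the same on both strands, was searched as the core of the motif that EBF proteins bind. It was in none of the 6 member windows of 300 bases (250 before and 50 after the start), and 0.9% of all such windows held it. The printed windows of the 2 members that passed the test thus differ in base composition.

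Ebf1 and Ebf3 were lower in Fgfr3 than in Dlx5 libraries, while Ebf2, Ebf4, Zfp423 and Zfp521 did not pass the test. Counts were compared with the quasi-likelihood test of edgeR, with Benjamini-Hochberg adjustment over all genes tested, and a gene was called where the adjusted p was under 0.05 and the absolute log2 fold change above 1. A fold change is Fgfr3 over Dlx5, so that a negative value means less in Fgfr3. Levels are given as CPM, the counts of a gene scaled to the total of its library after that total was adjusted by the TMM factor of edgeR, which was 0.927 to 0.964 in Dlx5 and 1.09 in both Fgfr3 libraries. Of the 6 members, 5 reached 10 CPM in 2 or more libraries and were tested among 10088 genes, and 2 of these 5 were called. Among all genes tested, 29.5% were called, 13.1% higher in Dlx5 and 16.4% higher in Fgfr3, so that calls were common between these libraries. The Dlx5 libraries held 22035650 to 32563758 counts and the Fgfr3 libraries 56355203 and 58166285. Per the study's methods, Dlx5 libraries were read as paired ends on a NovaSeq and Fgfr3 libraries as single ends on a HiSeq, with shorter reads, although the labels name a HiSeq for all. Sequencer and read length therefore coincide with the lineage, and their part and that of the lineage cannot be told apart in any difference below. In bulk samples, fewer cells of a type and less RNA per cell cannot be told apart either.

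**Figure D1:**
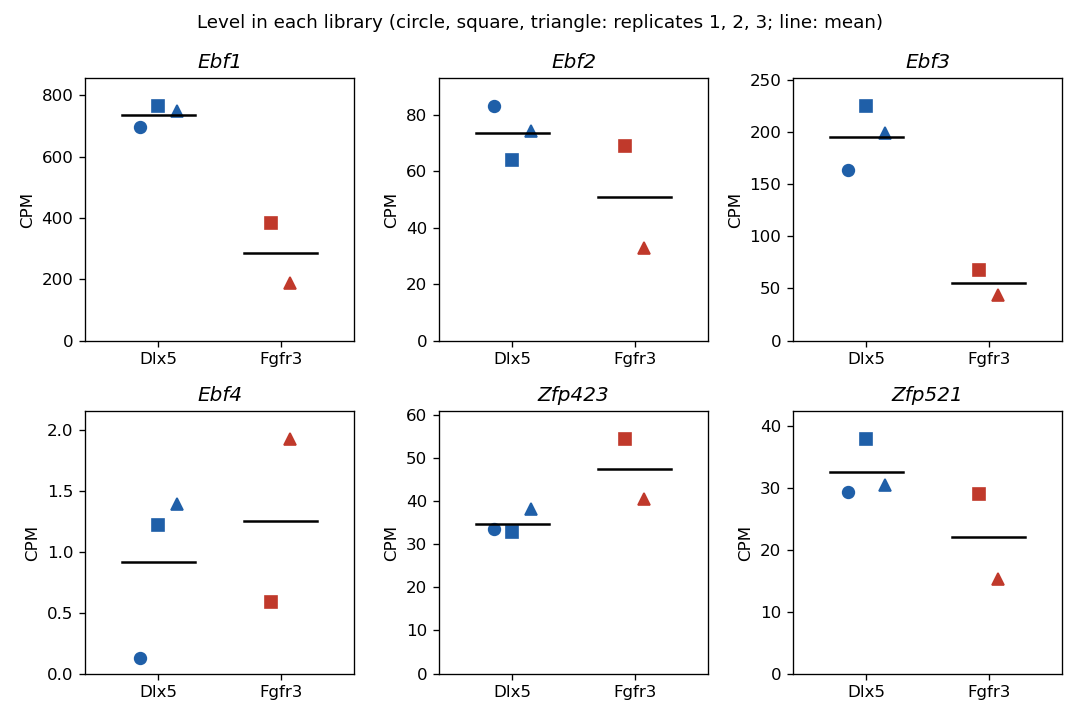
Level of each member in CPM (vertical axis, from 0, with a scale of its own in each panel) in the 3 Dlx5 libraries (blue) and the 2 Fgfr3 libraries (red), with the replicate number as the shape and the group mean as a line. Ebf1 and Ebf3 are lower in both Fgfr3 libraries than in any Dlx5 library, Ebf2 and Ebf4 overlap between the groups, and Zfp423 is the member whose Fgfr3 points both lie above the Dlx5 points.

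Ebf3 (ENSMUSG00000010476, chr7:137193673-137314445, minus strand) showed the largest fold change of the members tested. Its level was 164, 225 and 199 CPM in Dlx5 replicates 1, 2 and 3, and 67.8 and 43.3 CPM in Fgfr3 replicates 2 and 3. Each Dlx5 library was above each Fgfr3 library, a separation in this direction that 34.1% of the genes tested also showed. The means were 196 ± 30.7 CPM (SD, n = 3) in Dlx5 and 55.5 ± 17.3 CPM (SD, n = 2) in Fgfr3, a 3.52-fold difference in the fit (log2 fold change −1.82, SE 0.24, edgeR adjusted p = 0.00116). Ebf3 was among the genes that the study had picked out from these libraries, so its direction is not independent evidence. The call was kept in each of the 19 alternatives, in which the fold change ran from −2.10 to −1.08. A noncoding gene on the other strand, Gm45278, shares 355 exon bases with Ebf3, 3.8% of its exon length, and held 77, 102 and 98 counts in Dlx5 and 61 and 6 in Fgfr3, against 2745 to 5014 for Ebf3. The library kit does not mark strand, so reads from the shared bases cannot be divided between these 2 genes.

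Ebf1 (ENSMUSG00000057098, chr11:44617317-45008091, plus strand), the member with the most counts, was called in the same direction. Its level was 698, 764 and 750 CPM in Dlx5 replicates 1, 2 and 3, and 383 and 189 CPM in Fgfr3 replicates 2 and 3. The Dlx5 libraries lay close together and above both Fgfr3 libraries, which differed 2.03-fold from each other. The means were 737 ± 34.8 CPM (SD, n = 3) and 286 ± 137 CPM (SD, n = 2), a 2.58-fold difference in the fit (log2 fold change −1.37, SE 0.30, 95% interval −2.07 to −0.66, edgeR adjusted p = 0.00853). The size of the Ebf1 difference rested on Fgfr3 replicate 3: without it the log2 fold change was −0.89 (edgeR adjusted p = 0.00838) and Ebf1 was no longer called, and without Fgfr3 replicate 2 it was −1.89. A test against a 2-fold difference in place of no difference gave an adjusted p of 0.189 for Ebf1.

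Ebf2 (ENSMUSG00000022053, chr14:67233292-67430918, plus strand) did not separate the lineages. Its level was 82.9, 63.9 and 74.1 CPM in Dlx5 replicates 1, 2 and 3, and 68.8 and 32.8 CPM in Fgfr3 replicates 2 and 3. Fgfr3 replicate 2 fell within the Dlx5 range and Fgfr3 replicate 3 below it. The log2 fold change was −0.54 (SE 0.31, 95% interval −1.26 to 0.19, edgeR adjusted p = 0.188), an interval that includes no difference and a 2-fold one. Without Fgfr3 replicate 2, Ebf2 was called, at −1.09 (edgeR adjusted p = 0.00744), and without Fgfr3 replicate 3 its log2 fold change was −0.039. The noncoding gene Gm10860 on the other strand shares 6.1% of the exon bases of Ebf2 and held at most 10 counts in any library.

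Ebf4 (ENSMUSG00000053552, chr2:130295169-130370481, plus strand), the least studied member of the family, was near the limit of detection. It had 4, 26 and 35 counts in Dlx5 replicates 1, 2 and 3, and 36 and 122 counts in Fgfr3 replicates 2 and 3, or 0.13 to 1.92 CPM. It did not reach a CPM of 10 in any library and was taken from a second fit of the 13225 genes that reached 1 CPM in 2 or more libraries, of which 29.5% were called. There its log2 fold change was 0.45 (SE 0.96, edgeR adjusted p = 0.733), and the Dlx5 libraries alone ran from 0.13 to 1.39 CPM. No direction can be given for Ebf4: the sign turned under 4 alternatives, among them leaving out Dlx5 replicate 1 (−0.08) or Fgfr3 replicate 3 (−0.62).

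The partner zinc fingers did not pass the test in either direction. Zfp423 (ENSMUSG00000045333, chr8:87661810-87959595, minus strand) was at 33.4, 32.8 and 38.1 CPM in Dlx5 replicates 1, 2 and 3, and at 54.3 and 40.6 CPM in Fgfr3 replicates 2 and 3. Both Fgfr3 libraries were above all Dlx5 libraries, as for 34.8% of the genes tested, with a log2 fold change of 0.45 (SE 0.18, 95% interval 0.03 to 0.87, edgeR adjusted p = 0.0744). Zfp521 (ENSMUSG00000024420, chr18:13687013-13972787, minus strand) was at 29.4, 37.9 and 30.5 CPM in Dlx5 and at 29.0 and 15.3 CPM in Fgfr3. Both Fgfr3 values were below the lowest Dlx5 value, replicate 2 by less than 1 CPM, with a log2 fold change of −0.55 (SE 0.29, 95% interval −1.24 to 0.13, edgeR adjusted p = 0.156). Without Fgfr3 replicate 2, Zfp521 was called, at −1.01 (edgeR adjusted p = 0.0162), and without Fgfr3 replicate 3 it was at −0.10. The number of members called was therefore 4 without Fgfr3 replicate 2 and 1, Ebf3, without Fgfr3 replicate 3.

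**Figure D2:**
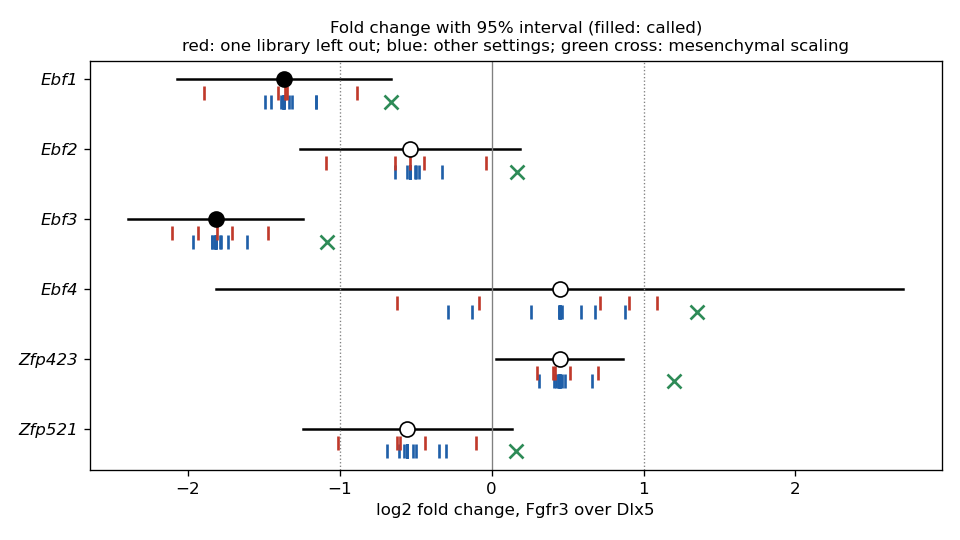
Log2 fold change of each member, Fgfr3 over Dlx5 (horizontal axis), with its 95% interval, filled where the gene was called, above the values with 1 library left out (red), with other settings (blue) and with scaling to mesenchymal genes (green cross). Ebf3 stays below −1 in every setting, whereas the green crosses of Ebf2 (0.17) and Zfp521 (0.16) lie on the other side of 0 from their main values.

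The scaling of the libraries changed the sign of 2 members. The TMM scaling of the main fit assumes that most genes do not differ. As an alternative, 12 mesenchymal genes were fixed as a reference list (Prrx1, Fbn1, Sparc and others, with Pdgfra and Pdgfrb also in the CAR list below). Of the 10 tested, 3 were themselves called higher in Dlx5 and 1 higher in Fgfr3, with a median of −0.71 in the main fit. Fstl1 (−1.19, called) and Sparc (−0.36, not called) held the largest parts of its summed counts, by which the libraries were scaled. Relative to this list the median log2 fold change of all genes moved from 0.01 to 0.80. With that scaling Ebf3 was at −1.08 and still called, Ebf1 was at −0.66 and not called, and Zfp423 was at 1.20 and called (edgeR adjusted p = 0.00122). Ebf2 and Zfp521 changed sign, to 0.17 and 0.16. Every member thus moved up by about as much as the median gene, and their order was kept.

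The levels were also set against the GFP transcript, which is made from the Cxcl12 locus and on whose fluorescence the cells were sorted. The GFP transcript (egfp) was itself lower in Fgfr3, at a log2 fold change of −0.79 (SE 0.21, edgeR adjusted p = 0.0194), which raises every member in Fgfr3 on this scale. Ebf1 had 60.8 to 69.1 counts per 1000 GFP counts in Dlx5, and 51.3 and 33.4 in Fgfr3 replicates 2 and 3. Ebf3 had 15.3 to 20.3 counts per 1000 GFP counts in Dlx5, and 9.09 and 7.67 in Fgfr3. On this scale Zfp423 stood apart in the other direction, at 2.96 to 3.13 in Dlx5 and at 7.28 and 7.19 in Fgfr3, with the 2 Fgfr3 libraries close together. Ebf2, at 5.78 to 7.76 in Dlx5 and at 9.23 and 5.81 in Fgfr3, and Zfp521, at 2.47 to 3.42 in Dlx5 and at 3.89 and 2.71 in Fgfr3, overlapped between the groups.

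Ratios between members within a library do not depend on its scaling. All 10 pairs of the 5 members tested were compared by a two-sided exact permutation test of the log2 ratios over the 10 ways of dividing 5 libraries into 3 and 2, in which p cannot go below 0.1. The ratio of Zfp423 to Ebf3 counts showed the largest difference: it was 0.204, 0.146 and 0.192 in Dlx5 replicates 1, 2 and 3, and 0.801 and 0.937 in Fgfr3 replicates 2 and 3 (difference of mean log2 ratios 2.28, exact permutation p = 0.1, adjusted over the 10 ratios 0.125). Zfp423 to Ebf1 was 0.043 to 0.051 in Dlx5, and 0.142 and 0.215 in Fgfr3 (difference 1.89, exact permutation p = 0.1). Both ratios of Zfp423 to a called Ebf gene were thus higher in Fgfr3 libraries, without overlap. The same held for Zfp521. Zfp521 to Ebf3 was 0.153 to 0.180 in Dlx5, and 0.428 and 0.353 in Fgfr3 (difference 1.22, exact permutation p = 0.1). Zfp521 to Ebf1 was 0.041 to 0.050 in Dlx5, and 0.076 and 0.081 in Fgfr3 (difference 0.84, exact permutation p = 0.1).

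The Ebf genes also differed from one another. Ebf3 to Ebf2 was 1.97, 3.51 and 2.69 in Dlx5, and 0.986 and 1.32 in Fgfr3 (difference −1.22, exact permutation p = 0.1), and Ebf2 to Ebf1 was 0.119, 0.084 and 0.099 in Dlx5, and 0.180 and 0.174 in Fgfr3 (difference 0.83, exact permutation p = 0.1). Ebf2 thus took a larger part relative to both other Ebf genes in Fgfr3 libraries. Ebf3 to Ebf1, the pair that was called in the same direction, was 0.234, 0.294 and 0.265 in Dlx5, and 0.177 and 0.229 in Fgfr3 (difference −0.39, exact permutation p = 0.2). Zfp521 to Ebf2 ran from 0.354 to 0.592 in Dlx5 and was 0.422 and 0.466 in Fgfr3, inside the Dlx5 range (difference 0.01, exact permutation p = 1). The groups did not overlap in 9 of the 10 ratios, each at the smallest p the design allows except Ebf3 to Ebf1. The 10 ratios share 5 members, and no exact permutation p was below 0.125 after adjustment. Separation was common: 34.1% of the genes tested had every Dlx5 library above every Fgfr3 library, and 34.8% the reverse. The share of gene pairs in general whose ratio separates the groups was not determined.

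**Figure D3:**
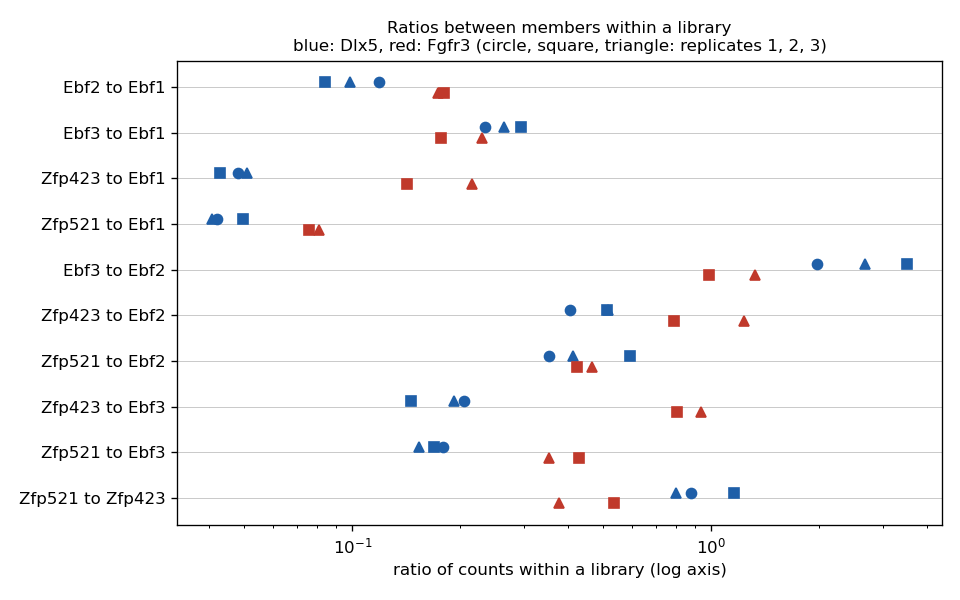
Ratio of the counts of 2 members within a library (horizontal axis, logarithmic) for the 10 pairs, in Dlx5 libraries (blue) and Fgfr3 libraries (red), with the replicate number as the shape. The groups are farthest apart for Zfp423 to Ebf3, at 0.146 to 0.204 against 0.801 and 0.937, and mixed for Zfp521 to Ebf2.

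Levels of different genes were compared per kilobase of exon, as CPM divided by the union exon length. In Dlx5 libraries the order was the same in each: Ebf1 at 71.5 to 78.3, Ebf3 at 17.7 to 24.4, Ebf2 at 9.23 to 12.0, Zfp423 at 5.84 to 6.80, Zfp521 at 4.18 to 5.39 and Ebf4 at 0.040 to 0.430 CPM per kilobase. In Fgfr3 libraries Ebf1 was again the highest, at 39.2 and 19.4 CPM per kilobase in replicates 2 and 3, and Zfp521, at 4.13 and 2.18, and Ebf4, at 0.181 and 0.595, were the lowest. Between them, Ebf2 at 9.93 and 4.74, Ebf3 at 7.35 and 4.69 and Zfp423 at 9.68 and 7.24 CPM per kilobase did not differ beyond the spread of the libraries, and their order depended on the length used. With the longest transcript in place of the union of exons, Ebf3 was at 13.6 and 8.67, Ebf2 at 13.2 and 6.31 and Zfp423 at 11.1 and 8.27 CPM per kilobase in Fgfr3.

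As a share of the 4 Ebf genes per length, Ebf1 made up 70.6%, 69.7% and 70.2% in Dlx5 replicates 1, 2 and 3, and 69.2% and 65.9% in Fgfr3 replicates 2 and 3. The summed level of the 4 genes was 945 to 1054 CPM in Dlx5, and 520 and 267 CPM in Fgfr3. The share of Ebf3 was 17.5% to 21.7% in Dlx5, and 12.96% and 16.0% in Fgfr3, while that of Ebf2 was 8.22% to 11.8% in Dlx5, and 17.5% and 16.1% in Fgfr3. Ebf1 thus held a similar share in both groups, while Ebf2 was above and Ebf3 below its Dlx5 range in both Fgfr3 libraries. Ebf4 was at most 0.393% in Dlx5 and 2.02% in Fgfr3 replicate 3.

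**Figure D4:**
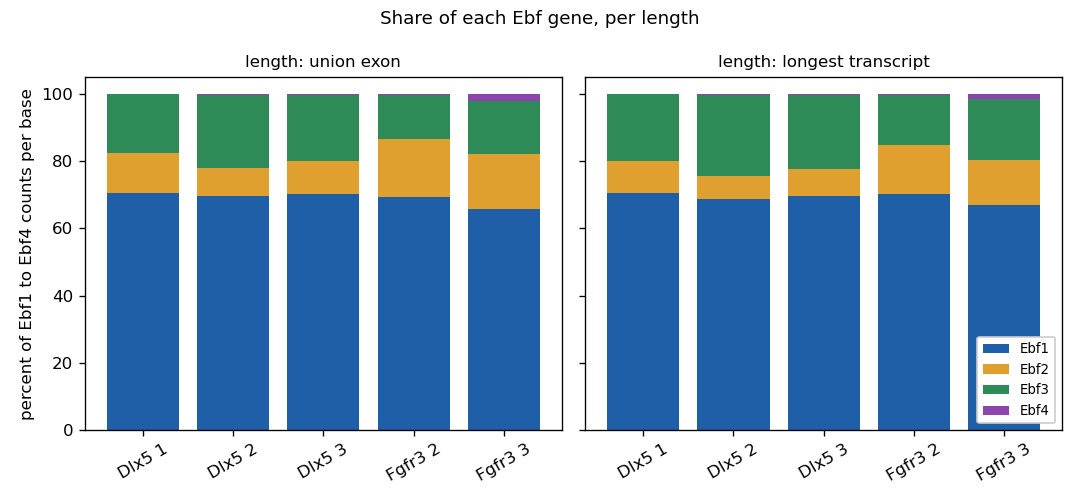
Share of each Ebf gene in the counts per base of Ebf1 to Ebf4 (vertical axis, percent) in each library, with the union of exons (left) or the longest transcript (right) as the length. Ebf1 takes about the same part of every bar, at 65.9% to 70.6% on the left, and the Ebf2 part is wider in the Fgfr3 bars.

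The 2 Fgfr3 libraries differed from each other in most members. Replicate 2 was 2.03-fold above replicate 3 in Ebf1, 2.10-fold in Ebf2, 1.56-fold in Ebf3, 1.34-fold in Zfp423 and 1.90-fold in Zfp521. Markers of leukocytes, neutrophils and macrophages were higher in Fgfr3 and highest in its replicate 3: the summed level of 10 leukocyte genes was 477 to 603 CPM in Dlx5, and 1479 and 3178 CPM in Fgfr3 replicates 2 and 3, that of 10 neutrophil genes was 2507 to 3121, and 7028 and 17352 CPM, and that of 10 macrophage genes was 333 to 456, and 1465 and 3316 CPM. Of these lists, 10 of 10 leukocyte, 10 of 10 neutrophil and 6 of 7 macrophage genes tested were called higher in Fgfr3, with none of the markers at 0. The share of all genes tested called in this direction was 16.4%. Of the macrophage sums, Lyz2 alone held 256 to 352 CPM in Dlx5, and 1292 and 3070 CPM in Fgfr3. The macrophage gene Mrc1, not tested, was lower in Fgfr3, at 7.28 to 12.1 CPM in Dlx5, and 6.03 and 3.42 CPM in Fgfr3. Chondrocyte markers, 11 genes with Col2a1 and Acan among them, summed to 136 to 142 CPM in Dlx5, with up to 5 genes at 0, and to 3542 and 504 CPM in Fgfr3 with none at 0. Sox9 held 117 to 124 CPM of the Dlx5 sums and was lower in Fgfr3, at 96.8 and 53.7 CPM, but not called. Of 5 chondrocyte genes tested, 4 were called higher in Fgfr3. Osteoblast markers, 11 genes, summed to 4499 to 6579 CPM in Dlx5, and to 12520 and 15667 CPM in Fgfr3, endothelial markers, 10 genes, to at most 57.5 CPM in any library, and erythroid markers, 9 genes, to 17814 to 36306 CPM in Dlx5 and to 13891 and 20660 CPM in Fgfr3, where the groups overlapped. Of 9 osteoblast genes tested, 5 were called higher in Fgfr3, 1, Phex (log2 fold change −2.23), higher in Dlx5 and 3 not called. Of 9 erythroid genes tested, 2 were called higher in Dlx5 and 7 not called. The 12 mesenchymal reference genes, by contrast, summed to 14131 to 14657 CPM in Dlx5, and to 9874 and 7162 CPM in Fgfr3. The part of these cells in the Ebf values was not tested.

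B lineage cells express Ebf1 as well, so early B lineage genes were read beside it. Their 15 genes, with Pax5 and Cd79a among them, summed to 552, 213 and 222 CPM in Dlx5 replicates 1, 2 and 3, and to 667 and 1105 CPM in Fgfr3 replicates 2 and 3. Of these sums, Ighm alone, which was not tested, held 258, 93.1 and 107 CPM in Dlx5, and 350 and 560 CPM in Fgfr3. Igll1, a surrogate light chain gene, was called higher in Fgfr3 (log2 fold change 2.17, SE 0.43, edgeR adjusted p = 0.00566), as was Blk, a B cell kinase gene (1.99, SE 0.61, edgeR adjusted p = 0.0324). Of all genes tested, 16.4% were called higher in Fgfr3. In this list 5 of the 9 genes tested were called, all in that direction, with a median of 1.44. This count was 0 without Fgfr3 replicate 3, 1 without Dlx5 replicate 2, 2 without Dlx5 replicate 3 or without Fgfr3 replicate 2, and 9 without Dlx5 replicate 1. Fgfr3 replicate 3, which is 1 library, had both the lowest Ebf1 level and the highest B lineage sum. The part of B lineage cells in the Ebf1 counts was not tested. Pax5, which works downstream of EBF1, was not tested. It had 282, 79 and 76 counts in Dlx5 replicates 1, 2 and 3, and 178 and 177 in Fgfr3 replicates 2 and 3. Scaled, Pax5 was at 9.20, 3.72 and 3.02 CPM in Dlx5, and at 2.89 and 2.79 CPM in Fgfr3. Both Fgfr3 values of Pax5 were thus below each Dlx5 value, unlike the sum of the list.

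Genes that mark CAR cells were mostly lower in Fgfr3, as Ebf1 and Ebf3 were. Of 15 listed genes, all tested and some of which, such as Adipoq and Kitl, the study had named from these libraries, 11 were called higher in Dlx5, 1 higher in Fgfr3 and 3 not called, and the median log2 fold change was −1.73 against 0.01 for all genes tested. The shares of all genes tested called in these directions were 13.1% and 16.4%. Haptoglobin (Hp) was at −1.73 (SE 0.18, edgeR adjusted p = 0.000447), Igfbp5, an IGF-binding protein gene, at −2.32 (SE 0.29, edgeR adjusted p = 0.00084) and Pdgfra, a receptor of stromal cells, at −1.84 (SE 0.25, edgeR adjusted p = 0.00132). Lepr, the leptin receptor gene, which the study had also named, was at −0.94 (SE 0.30, edgeR adjusted p = 0.0383), below the fold required. Foxc1, a transcription factor gene of CAR cells, was the exception, at 2.82 (SE 0.22, edgeR adjusted p = 0.000134), with 1070, 1194 and 1303 counts in Dlx5, and 19378 and 22744 in Fgfr3. The summed level of the list was 46006 to 48284 CPM in Dlx5, and 17575 and 12076 CPM in Fgfr3. The libraries of both groups thus hold the defining genes of the labelled cell type, at levels that differ between the groups.

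Of the 11 adipogenic regulators tested, 1 was called higher in Dlx5, 2 higher in Fgfr3 and 8 not called, with a median of 0.13, a share of calls near the 29.5% of all genes tested. Lpin1, a phosphatidate phosphatase gene, was at −1.14 (SE 0.20, edgeR adjusted p = 0.0038), and Klf5, a Krüppel-like factor gene, at 2.09 (SE 0.29, edgeR adjusted p = 0.00143). Cebpb, an early adipogenic factor gene, had 69, 92 and 148 counts in Dlx5, and 48968 and 53574 in Fgfr3 (log2 fold change 7.63, edgeR adjusted p = 4.28e-05), and 20.7% of its exon bases overlap Tmem189 on the other strand. Tmem189 held 178, 138 and 193 counts in Dlx5, and 4449 and 7605 in Fgfr3, and reads from the shared bases cannot be divided between these 2 genes. The number called was 0 without Fgfr3 replicate 3 and 1 without Fgfr3 replicate 2. Pparg, the central adipogenic factor gene, was at −0.46 (SE 0.22, edgeR adjusted p = 0.128). Among brown and beige fat regulators, with which Ebf2 acts, 3 of the 9 genes in the counts were tested and 2 called: Prdm16 was at −2.38 (SE 0.47, edgeR adjusted p = 0.00583), Pdk4 at 2.31 (SE 0.29, edgeR adjusted p = 0.000951) and Zfp516 was not called. The number called was 1 without Dlx5 replicate 2 or 3.

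Zfp423 binds Smads, and in the list of BMP receptors, Smads and Id targets 4 of 11 genes tested were called higher in Fgfr3, 1 higher in Dlx5 and 6 not called, with a median of 0.49, where 16.4% and 13.1% of all genes tested were called in these directions. The inhibitory Smad6 was at 3.64 (SE 0.16, edgeR adjusted p = 4.09e-05), the common Smad4 at 2.58 (SE 0.16, edgeR adjusted p = 6.44e-05) and the BMP-activated Smad1 at 2.09 (SE 0.15, edgeR adjusted p = 8.77e-05). Bmpr2, a BMP receptor gene, was at −1.01 (SE 0.31, edgeR adjusted p = 0.0311). The BMP target genes Id1, Id2 and Id3 were not called, at −0.60, −0.26 and −0.31. The number called was 3, not 5, with the trend over GC content or over length removed, near the share of all genes. Smads and their targets thus gave no single direction beside the higher but uncalled Zfp423.

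Zfp521 has been tied to Runx2 and to histone deacetylases. Of all genes tested, 16.4% were called higher in Fgfr3 and 13.1% higher in Dlx5. In the list of Runx2 and its corepressors 4 of 9 genes tested were called higher in Fgfr3 and none higher in Dlx5, with a median of 0.14. These were Cbfb, the partner subunit of Runx2 (2.03, SE 0.19, edgeR adjusted p = 0.000256), Twist1, a helix-loop-helix repressor gene (3.21, SE 0.32, edgeR adjusted p = 0.000382), Hdac4 (1.69, SE 0.17, edgeR adjusted p = 0.00041) and Tle1 (1.63). Runx2 itself was at −0.67 (SE 0.23, edgeR adjusted p = 0.0493), below the fold required. The NuRD complex, a chromatin remodeller that both zinc finger proteins can recruit, had 5 of 13 genes called higher in Fgfr3 and 3 higher in Dlx5, with a median of 0.32. Mbd2 was at 3.32, Hdac2 at 3.56 and Mbd3 at 1.93 (edgeR adjusted p = 4.28e-05, 6.44e-05 and 8.78e-05), whereas Chd4, Chd3 and Gatad2b were at −1.46, −1.43 and −1.23 (edgeR adjusted p = 0.000532, 0.00119 and 0.00222). The number called was 8, and 5 with the trend over length removed. Genes of the NuRD list were thus called in opposite directions. In all 7 lists, 39 of 71 genes tested were called, against 29.5% of all genes tested. The CAR list gave 12 of these 39 calls, and the study had named some of its genes from these libraries. The pooled count is therefore not independent evidence.

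**Figure D5:**
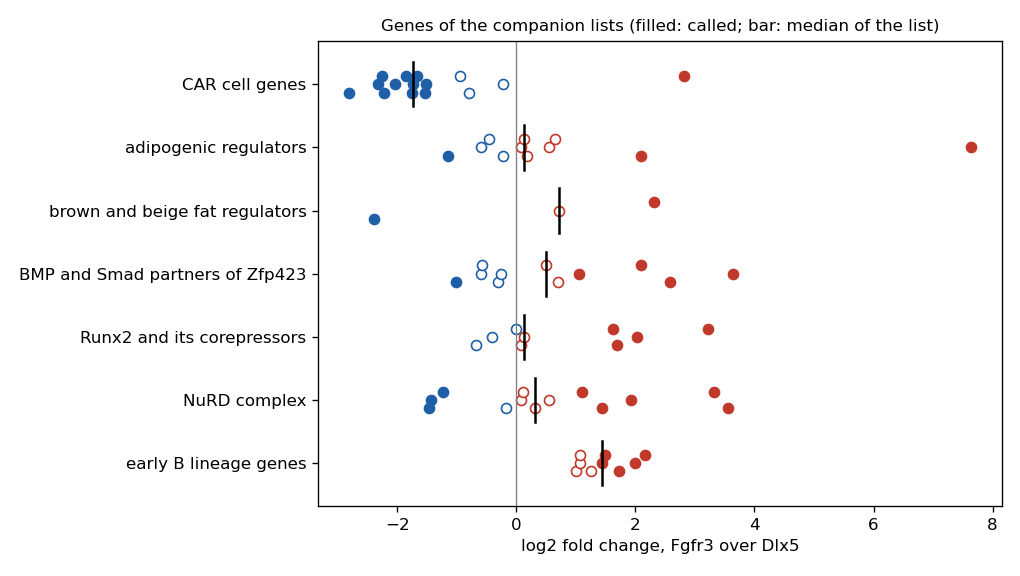
Log2 fold change of each gene tested, Fgfr3 over Dlx5 (horizontal axis), in 7 lists of genes that work with the Ebf and zinc finger factors or mark the cells, with called genes filled and the median of each list as a bar. The CAR cell genes lie mostly to the left (median −1.73) with Foxc1 at 2.82, while the adipogenic, Smad, Runx2 and NuRD lists spread to both sides with medians from 0.13 to 0.49.

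The genes whose pattern over the 5 libraries was nearest to each member, by the Euclidean distance of centred log2 CPM over 10087 other genes, are given as a description. Nearest to Ebf1 were Plekhh2 (distance 0.108), Fmo1 and Gsta4, and nearest to Ebf3 were Atf7 (0.13), Cmbl and Klhl9. Ebf2 was nearest to Paip2b (0.16), Prdm15 and Ccnd2, Zfp423 to Zc3h15 (0.056), Fam76a and Tbxa2r, and Zfp521 to Enox2 (0.12), Rbms3 and Plagl1. No member was among the 3 nearest genes of another. For Ebf4, searched among 13224 genes, the nearest was Ccdc17 at a distance of 0.63, farther than for any other member.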

How the data were processed

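Per the labels and the study's methods, RNA of sorted cells was amplified with SMART-Seq v4 and made into libraries with Nextera XT, neither of which marks strand. The submitters' processing notes name TopHat2 2.0.13, Bowtie2 2.2.1, HTSeq and DESeq2, with no roles, and the build mm10. The authors deposited raw counts per gene, not normalized, for 30046 features. Their table of counts divided by size factors and their table of transformed values were not used here. Groups were taken from the labels.

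Of the identifiers, 29965 matched GENCODE M21 (GRCm38, the build of mm10), 76 did not and 5 were reporters. Protein-coding genes and reporters that reached 10 CPM in 2 or more libraries, on unadjusted totals, entered edgeR 4.0.16, run in R 4.3.3 (TMM, quasi-likelihood, no covariates, Benjamini-Hochberg adjustment). The study's methods name edgeR's exact test, which was an alternative, as were DESeq2 1.42.0 and limma 3.58.1. Other alternatives changed the scaling, the filter, the threshold, GC or length trends and the libraries. In 50-base windows of member transcripts, only Ebf2 (4.82%) and Ebf3 (2.26%) shared sequence with another gene, each with its antisense gene. The p-values measure the spread between these pools, and counts without molecular identifiers carry counting error of amplified reads only.

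The members and the gene lists were chosen with earlier results of these data known, the study itself having named Ebf3 and some of the CAR cell genes from these libraries, and support nothing on their own. The text names all 6 members, in each list the up to 3 called genes per direction with the smallest adjusted p, and the 3 nearest genes of each member. A gene that this rule names in the early B lineage list is not reported here. Pparg, Runx2, Lepr, Pax5, Ighm, Tle1, Zfp516, Sox9, Lyz2, Mrc1, Phex, Fstl1 and the Id genes were named after their values were seen.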

Additional observations from a re-analysis of the deposited data

How the results depend on the processing

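Of the alternatives tried, Ebf3 kept its direction and its call in all 19. Scaling to the mesenchymal reference genes moved the log2 fold change of Ebf1 to −0.66, reversed Ebf2 to 0.17 and Zfp521 to 0.16, raised Zfp423 to 1.20 and called 475 genes higher in Dlx5 and 3948 higher in Fgfr3 (89.3% of calls), while scaling to library size alone called 1009 and 1985 (66.3%), against 1318 and 1653 (55.6%) in the main fit. With a test against a 2-fold difference, Ebf1 at −1.37 was not called (edgeR adjusted p = 0.189), 1 member was called and 1670 genes were, and with the adjusted p alone 4880 genes were. Ebf4 turned negative with the GC trend removed (−0.13). Zfp423 was at 0.66 with library size alone (edgeR adjusted p = 0.0176) and at 0.46 with the length trend removed (edgeR adjusted p = 0.0455). Both values of Zfp423 were below the fold required. Leaving out 1 library at a time gave −1.89 to −0.89 for Ebf1, −1.09 to −0.039 for Ebf2, −0.62 to 1.09 for Ebf4, −1.01 to −0.10 for Zfp521 and 1 to 4 members called; a group left with 1 library was assumed to vary like the rest. The causes were not tested, beyond the fewer libraries.

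The groups share the numbers 2 and 3, but these name different pools, from mice of different genotypes. Deviations from the group means correlated at 0.124 for replicates 2 and at −0.049 for replicates 3. With 2 Fgfr3 libraries the deviations of these mirror each other, so the correlations cannot show whether replicates are paired. The replicate block turned Ebf4 to −0.29, kept 2 members called and called 1382 and 1678 genes.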
